A study of Mus musculus with 2 samples.

Results

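Gamma delta T cells were chosen by 6 measured genes from 2 single-cell RNA libraries of T cells from mouse melanoma. They were the cells with at least 1 UMI (unique molecular identifier, 1 captured mRNA molecule) of Trdc and of Cd3e and none of Cd8b1, Cd4, Foxp3 or C1qa, and they numbered 98 of 17390 cells. The values of these 6 genes are therefore a description. Both libraries came from NILER, a syngeneic mouse model grown from an Nras-mutant (Q61R) melanoma line, NIL, that had been exposed to ultraviolet light to raise its number of mutations, and both were collected on day 5. The tumours of one library were untreated, and those of the other received Trametinib, an inhibitor of the kinase MEK, together with BGB-283, an inhibitor of RAF kinases. The tumour genotype was therefore common to both groups, and the number of animals behind each library was not given in the sources used here. With 1 library per group, treatment and library cannot be told apart, no spread between animals exists, and no test was made. Every interval below is an exact 95% interval that covers counting error only.

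Gamma delta T cells carry an antigen receptor built from a gamma and a delta chain instead of the alpha and beta chains of CD4 and CD8 T cells. In mice many of them leave the thymus already committed to one of a pair of programmes. One makes interleukin-17 under factors such as Sox13 and Maf and depends on interleukin-7, and the other makes interferon gamma and carries natural killer receptors and granule proteins. The delta chain has the single constant gene Trdc, on chromosome 14, whereas the gamma locus on chromosome 13 holds several constant genes, each tied to its own variable segments. In tumours, interleukin-17-making and cytotoxic gamma delta T cells are known for opposite effects on tumour growth.

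The gamma constant genes differ most in the short exons that encode the connecting piece between the immunoglobulin-like domain and the membrane, which are shown here. Libraries of 3′ ends mainly read the 3′ untranslated region, so these exons do not tell how well such reads separate the genes. The sequences are from the GENCODE M21 transcripts (GRCm38), 5′ to 3′, and capitals mark the 15 bases of Tcrg-C1 that Tcrg-C2 lacks.
Tcrg-C1 exon 2: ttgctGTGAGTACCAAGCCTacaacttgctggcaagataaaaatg
Tcrg-C2 exon 2: ttgctacaacttgctggcaagataaaaatg
Tcrg-C4 exon 2: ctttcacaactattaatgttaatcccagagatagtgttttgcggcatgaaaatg
Tcrg-C4 exon 3: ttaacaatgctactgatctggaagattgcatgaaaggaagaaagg
Outside those 15 bases the exons of Tcrg-C1 and Tcrg-C2 have the same letters. Over the coding sequence Tcrg-C1 and Tcrg-C2 were 94.6% identical, and over the 3′ untranslated region, where 3′ libraries read, 93.2%. Tcrg-C4 was 55.8% identical to Tcrg-C1 and 55.1% to Tcrg-C2 in that region. A UMI given to Tcrg-C1 or Tcrg-C2 could therefore belong to the other gene, and their separate values are uncertain, while Tcrg-C4 is distinct. CD8 T cells had 84 untreated and 16 treated UMIs of Tcrg-C1, beside 734 and 1465 of Tcrg-C2. How often UMIs were exchanged between the 2 genes was not tested.

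The untreated library held 55 gamma delta T cells among 9312 cells (0.591%, interval 0.445 to 0.768%) and the treated library 43 among 8078 (0.532%, interval 0.385 to 0.716%). The intervals overlap. Without cells holding Trac, the constant gene of the alpha chain, the order turned, at 0.258% untreated and 0.384% treated, and with Tcrg-C1 or Tcrg-C4 required it was 0.268% and 0.322%. The cells were shallow, with a median of 4401 UMIs in the untreated library (2144 to 48849) and 3903 in the treated library (1311 to 7368), against medians of 6804 and 6603 in CD8 T cells. T cells without Trdc, Cd8b1 and Cd4 (4196 and 4395) and CD4 helper T cells (4310 and 4555) were also shallower than CD8 T cells. Summed over cells they gave 329563 and 176449 UMIs. The libraries shared 35 cell barcodes, and 0 of these belonged to a gamma delta T cell. A single untreated cell with 48849 UMIs supplied 14.8% of the untreated UMIs and almost all of the stromal ones (Col3a1, 96 UMIs, and Sparc, 62 UMIs), so results that rest on it are given with and without the largest cell of each library.

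Each step of the rule bore differently on the libraries. Of 299 untreated cells with a Trdc UMI, 267 had Cd3e, 100 of these lacked Cd8b1, 66 of those lacked Cd4, 59 also lacked Foxp3, and 55 also lacked C1qa. Of 101 treated cells with a Trdc UMI, 69 had Cd3e, 48 of these lacked Cd8b1, and 43 met the whole rule. The members nearest the threshold had 1 Trdc UMI (16 untreated and 15 treated cells), and 33 and 22 cells had 3 or more, up to 14 and 18. Just outside, 109 untreated and 21 treated T cells held both Trdc and Cd8b1, of which 87 and 13 had at least 2 Trdc UMIs. Trdc was also seen in 1.52% of untreated and 0.990% of treated macrophage droplets without Cd3e, cells that should lack the gene (median depths 8318 and 7156 UMIs), and in 5 of 15 untreated and 6 of 38 treated natural killer cells. Regulatory T cells, with Cd3e and Foxp3 and without Cd8b1 or C1qa, were not chosen on Trdc. The gene was seen in 16 of 488 untreated (3.28%) and 2 of 405 treated (0.494%) of them.

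The gamma chain genes, which the rule did not use, were found in a far larger share of gamma delta T cells than of CD8 T cells. Tcrg-C4 had a UMI in 32.7% of untreated (18 of 55, interval 20.7 to 46.7%) and 46.5% of treated gamma delta T cells (20 of 43, interval 31.2 to 62.3%), against 1.21% and 0.624% of CD8 T cells. Tcrg-C1 had a UMI in 11 of 55 and 10 of 43 gamma delta T cells, against 1.38% and 0.223% of CD8 T cells. Tcrg-C2 had a UMI in 30.9% and 46.5%, and here CD8 T cells were less far behind, at 7.48% and 16.1%. Any of the 3 genes was seen in 31 of 55 untreated and 33 of 43 treated gamma delta T cells. The T cells with both Trdc and Cd8b1, which the rule left out, were close to gamma delta T cells, with Tcrg-C4 in 25.7% of 109 untreated (interval 17.8 to 34.9%) and 42.9% of 21 treated cells (interval 21.8 to 66.0%). Natural killer cells had Tcrg-C4 in 2 of 15 untreated and 7 of 38 treated cells. With every cell thinned to 2000 UMIs, which left out 1 treated gamma delta T cell and 33 untreated and 113 treated CD8 T cells, Tcrg-C4 stood at 14.4% and 32.3% of gamma delta and 0.371% and 0.180% of CD8 T cells.

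The marker values went with the name for the class and against it in a part of the cells. Trac had a UMI in 31 of 55 untreated (56.4%) and 12 of 43 treated gamma delta T cells (27.9%), against 96.1% and 95% of CD8 T cells. Of the 16 untreated cells with 1 Trdc UMI, 14 had Trac and 2 had Tcrg-C1 or Tcrg-C4. Of the 15 treated cells with 1 Trdc UMI, 4 had Trac and 6 had Tcrg-C1 or Tcrg-C4. With 2 or more Trdc UMIs, Tcrg-C1 or Tcrg-C4 was seen in 23 of 39 untreated and 20 of 28 treated cells. Cd8a, which the rule left free, had a UMI in 23 untreated and 6 treated cells. The beta chain gene Trbc2 was seen in 94.5% and 76.7% of gamma delta T cells, and Trbc1 in 56.4% and 62.8%, against 65.7% and 62.6% of CD8 T cells. Among T cells with none of Trdc, Cd8b1 or Cd4, 12.2% untreated and 10.6% treated had Tcrg-C1 or Tcrg-C4, so the rule also left out cells with gamma transcripts.

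**Figure D1:**
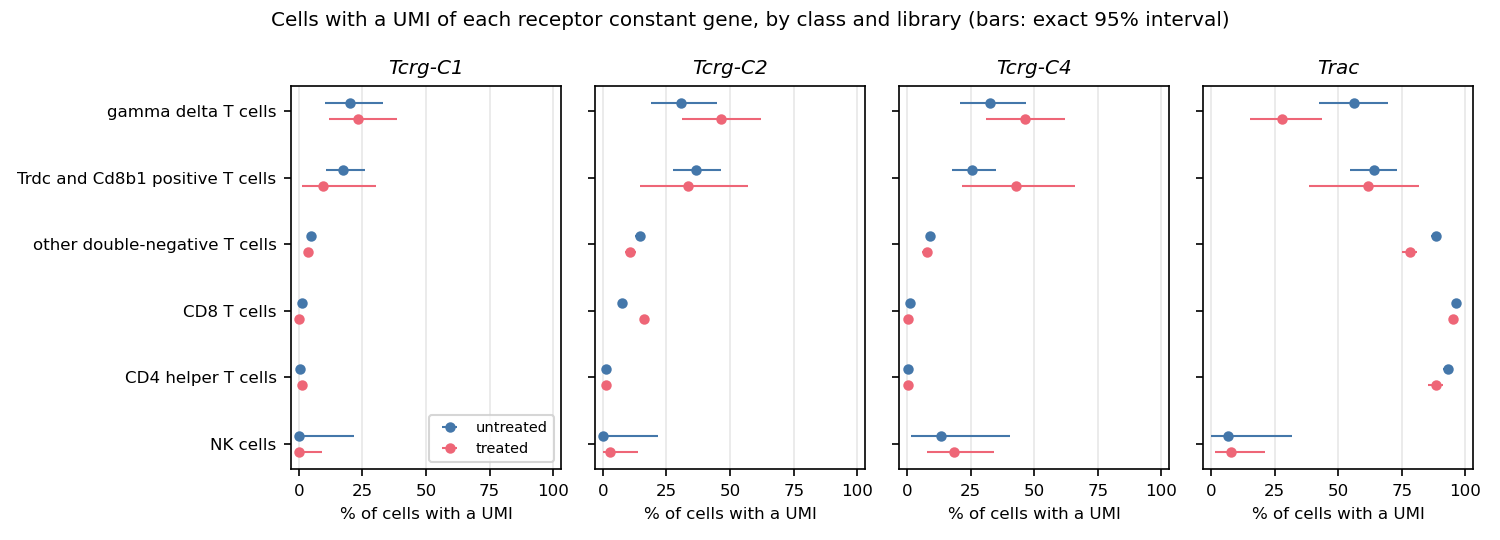
Share of cells with at least 1 UMI of Tcrg-C1, Tcrg-C2, Tcrg-C4 and Trac (x axes, percent) in 6 classes of cells (rows), with the untreated library in blue, the treated library in red and bars for the exact 95% interval. Tcrg-C4 reaches 32.7% and 46.5% in gamma delta T cells and 1.21% and 0.624% in CD8 T cells, while Trac, seen in 96.1% and 95% of CD8 T cells, is still seen in 56.4% of untreated gamma delta T cells.

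By level, Tcrg-C4 stood at 75.9 CPM (UMIs per 1000000 UMIs of the class) in untreated and 221 CPM in treated gamma delta T cells, 2.91-fold higher in the treated library (interval 1.72 to 5.02). Tcrg-C1 stood at 54.6 and 113 CPM (2.08-fold higher, interval 1.04 to 4.16), and without the largest cells the fold was 1.57 (interval 0.759 to 3.22). Tcrg-C2 stood at 115 and 153 CPM (1.33-fold higher, interval 0.779 to 2.23), and 15 of its 38 untreated UMIs lay in 1 cell. Trdc itself, used by the rule, was at 853 and 912 CPM. Trac was 2.78-fold lower in the treated library (331 to 119 CPM, interval 1.73 to 4.67), whereas Trbc1 was 1.60-fold higher (440.0 to 703 CPM, interval 1.25 to 2.04). The other beta chain gene, Trbc2, was seen in a smaller share of treated cells (94.5% to 76.7%), so the 2 beta chain genes did not go one way. Of 17 receptor segment genes looked for, 7 were in the table, and of the variable segments Tcrg-V1 (1 UMI), Trdv1 (2 UMIs) and Trdv2-2 (2 UMIs) appeared, all in the untreated library. The cells could therefore not be divided by variable segment.

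Cells with a type 17 programme were few in both libraries. A cell was put in the type 17 class when it had UMIs of at least 2 genes of that list, of which 9 of 12 were in the table (among them Il17a, Cd163l1, Il1r1, Ccr6, Blk, Maf, 5830411N06Rik and Il17re), and in the cytotoxic class when it had at least 2 of 15 cytotoxic genes and was not type 17. Il23r, Il17f and Sox13 were not analysed here. The type 17 class held 4 of 55 untreated (7.27%, interval 2.02 to 17.6%) and 6 of 43 treated cells (14%, interval 5.30 to 27.9%). The cytotoxic class held 30 (54.5%, interval 40.6 to 68.0%) and 28 (65.1%, interval 49.1 to 79.0%), and 21 and 9 cells fell in neither. All of these intervals overlap between the libraries. Within the cytotoxic class Trac was seen in 19 of 30 untreated and 9 of 28 treated cells, and Cd8a in 16 and 5. The name of that class is therefore least certain in the untreated library. The order of the type 17 shares depended on the rule: with at least 2 Trdc UMIs per cell it was 10.3% untreated and 7.14% treated, and without cells holding Cd8a it was 0 and 13.5%.

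The 6 treated type 17 cells also shared genes that were not used to choose them. All 6 had UMIs of Il7r, the interleukin-7 receptor (4 to 9 UMIs each), and of Rora, a factor of type 17 cells (3 to 9), and all 6 had 5830411N06Rik, a scavenger receptor gene of the family of Cd163l1 that belonged to the list (2 to 11). Ccl5, Klrd1, Lef1 and Trac were at 0 in each of them. All 6 had Tcrg-C1 or Tcrg-C4, although 4 of them had a single Trdc UMI. One of them held all 8 Il17a UMIs of the class, with 9 of Cd163l1, 3 of Blk, a kinase of interleukin-17-making gamma delta T cells, 4 of Tcrg-C1 and 18 of Trdc.

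The 4 untreated type 17 cells were mixed. One had UMIs of Cd163l1 (7), Maf (5), 5830411N06Rik (5) and Il7r (7) with Ccl5 and Trac at 0, and it held the 15 Tcrg-C2 UMIs. The other 3 all carried Ccl5 (7 to 19 UMIs), lacked 5830411N06Rik and Rora, and included the cell of 48849 UMIs. All 4 had a Cd8a UMI, whereas 1 treated type 17 cell did. Over all gamma delta T cells 5830411N06Rik was 8.22-fold higher in the treated library (30.3 to 249 CPM, interval 4.07 to 18.3), and 41 of its 44 treated UMIs lay in the 6 type 17 cells. In CD8 T cells the same gene was at 14.1 and 2.23 CPM. Maf was at 57.7 and 119 CPM in gamma delta T cells (2.06-fold higher, interval 1.06 to 4.06), but with at least 2 Trdc UMIs per cell its log2 ratio was -0.20. Cd163l1 was at 60.7 and 62.3 CPM.

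**Figure D2:**
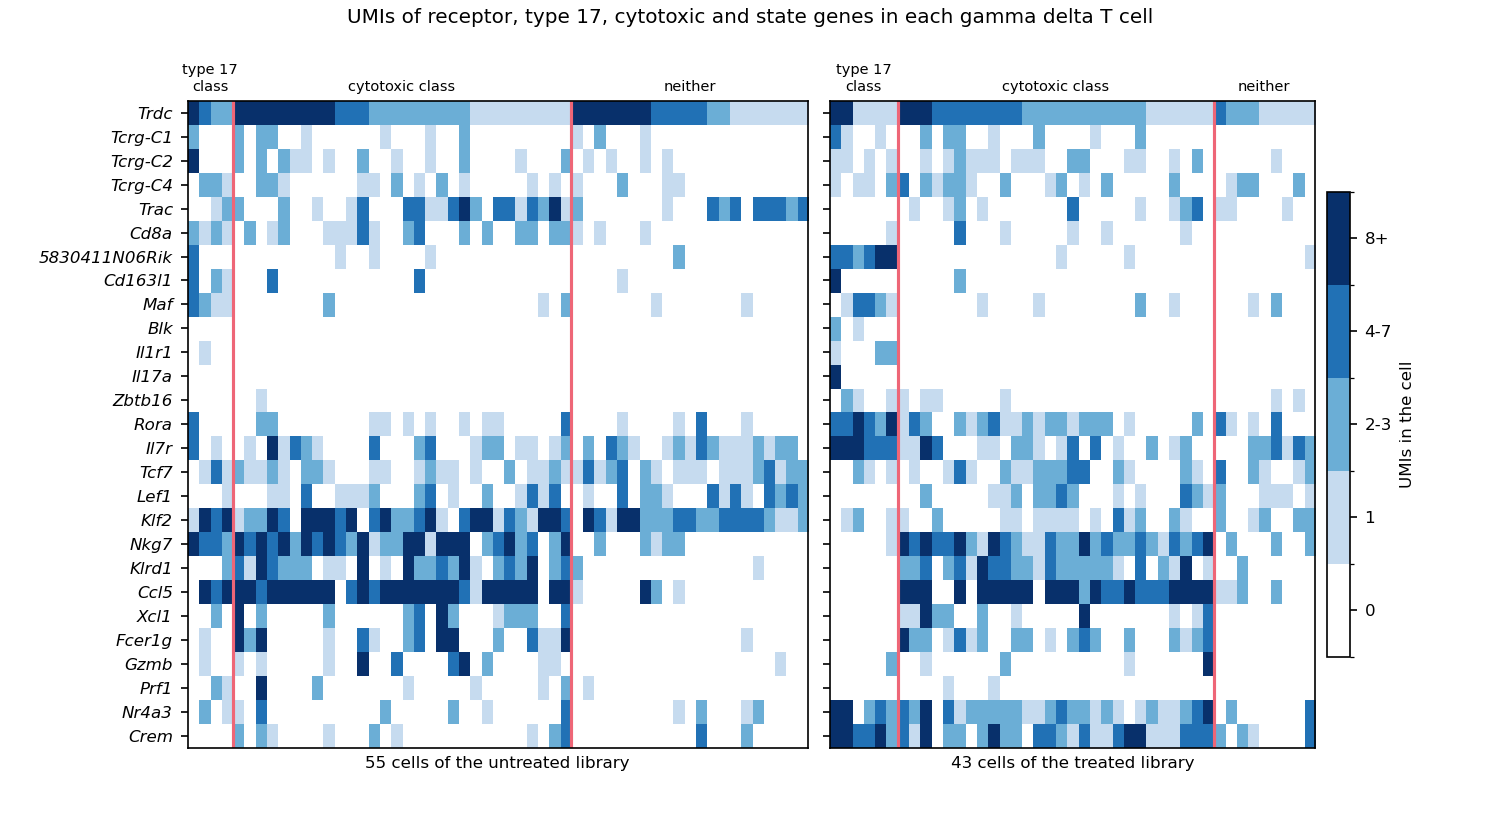
UMIs of 27 genes (rows) in each gamma delta T cell (columns) of the untreated library (left) and the treated library (right), with darker blue for more UMIs and red lines between the type 17 class, the cytotoxic class and the cells in neither. The 6 treated type 17 cells hold 5830411N06Rik, Rora and Il7r with Ccl5 and Klrd1 at 0, and Crem and Nr4a3 are seen in more treated than untreated cells.

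Most cells of the cytotoxic class held the chemokine Ccl5, which the class rule did not use. The shares of Nkg7, a granule protein gene, Klrd1 and Xcl1 are a description, since these genes belong to the list that chose the class. Ccl5 was seen in 28 of 30 untreated and 24 of 28 treated cytotoxic cells (3823 and 4666 CPM of the class), Nkg7 in 28 of 30 and 28 of 28 (1238 and 1317 CPM), and Klrd1, the CD94 natural killer receptor, in 24 of 30 and 24 of 28 (535 and 667 CPM). Gzmb, Prf1, Gzma and Ifng, also of the list, each had no UMI in most cells of the class. Gzmb was seen in 10 of 30 and 4 of 28, Prf1 in 6 and 2, Gzma in 4 and 1, and Ifng in 3 and 2. Xcl1, a chemokine for cross-presenting dendritic cells, was at 351 and 337 CPM, and Fcer1g, a signalling adaptor of natural killer receptors, at 470.5 and 453 CPM. Over all gamma delta T cells, perforin (Prf1) was at 63.7 CPM untreated and 11.3 CPM treated, against 282 and 89.7 in CD8 T cells. Granzyme B (Gzmb) was at 185 and 125 CPM, against 604 and 346 in CD8 T cells. Gzma went the other way in the treated library, at 36.4 and 119 CPM against 46.7 and 22.0 in CD8 T cells. Of 10 list genes with at least 10 UMIs, 3 were 2-fold below and 1 above CD8 T cells untreated, and 5 below and 2 above treated. For all 5413 genes with at least 10 UMIs, 3.25% were 2-fold below and 8.18% above untreated, and 9.48% and 9.75% treated. The treated genes above include Gzma, whose 21 treated UMIs lay in 1 cell. Gzmc (302 and 31.6 CPM in CD8 T cells) and Gzmf (452 and 188) had fewer than 10 UMIs and were not counted. Interferon gamma (Ifng) had 6 and 2 UMIs.

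Among 10 cytotoxic list genes with at least 10 UMIs, 2 were over 2-fold higher and 2 over 2-fold lower in treated gamma delta T cells, with a median log2 ratio of 0.28. Over all 5413 genes with at least 10 UMIs, 20.6% were 2-fold higher and 16% 2-fold lower, with a median of 0.12, so the list stood near the background. The higher genes were Fasl, the ligand of the death receptor Fas (15.2 to 56.7 CPM, 3.74-fold, interval 1.16 to 13.9), and Gzma (36.4 to 119 CPM), whose 21 treated UMIs all lay in 1 cell. The lower genes were Prf1 (5.62-fold, interval 1.37 to 49.5) and Eomes (2.25-fold, interval 0.825 to 7.63). Without cells holding Trac the list median was 1.55 and the log2 ratio of Eomes was 0.71.

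In the 21 untreated cells of neither class, Tcf7, a factor of naive and memory T cells, was seen in 18 (497 CPM), Lef1, its partner, in 13 (524 CPM), Klf2, which drives exit from tissue, in 20 (1222 CPM), and Il7r in 16 (443 CPM). Gzmb was seen in 1 of them and Pdcd1 in 0. Trac was seen in 10 of the 21. These genes were not particular to them, since the untreated cytotoxic class had Tcf7 in 20 of 30 cells (146 CPM) and Klf2 in 27 of 30 (1098 CPM). In the 9 treated cells of neither class Tcf7 was seen in 5 (391 CPM), Lef1 in 5 (249 CPM), Klf2 in 5 (391 CPM) and Il7r in 6 (569 CPM).

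Set beside the CD8 T cells of the same library, gamma delta T cells held less of several inhibitory and costimulatory receptor genes. Of 5 checkpoint genes with at least 10 UMIs, 2 were 2-fold below CD8 T cells in each library and 0 untreated and 1 treated value 2-fold above, with median log2 ratios of -0.70 and -0.18, where 3.25% and 9.48% of all 5413 genes were 2-fold below. Lag3, an inhibitory receptor, had 1 UMI in untreated (3.03 CPM, against 166 in CD8 T cells, 54.6-fold lower, interval 9.80 to 2158) and 0 in treated gamma delta T cells (against 243, at least 14.3-fold lower, from a floor of 3 UMIs). Pdcd1, which encodes PD-1, was at 15.2 and 51.0 CPM against 223 and 348 in CD8 T cells. Havcr2, which encodes TIM-3, was at 0 in both libraries against 40.6 and 51.6 CPM, at least 4.46-fold and at least 3.04-fold lower. T cells without Trdc, Cd8b1 and Cd4 were also below CD8 T cells, where Lag3 stood at 16.9 (untreated) and 57.6 CPM (treated) and Pdcd1 at 46.1 and 80.7. Tox, a factor of exhausted T cells, was at 21.2 and 11.3 CPM against 74.0 and 228, and Tnfrsf4 and Tnfrsf9, costimulatory receptors, were also lower in both libraries. Havcr2 and Tox were not among the 8 lowest genes by the interval bound, of which the others were the granzyme gene Gzmf (3.03 and 0 CPM against 452 and 188 in CD8 T cells), the chemokine Ccl4 (9.10 and 5.67 against 271 and 159), Rgs16, a regulator of G protein signalling (15.2 and 5.67 against 175 and 369), and Cd8a, the partner of a gene the rule used. Of 1327 genes with at least 50 UMIs in gamma delta T cells, the share 2-fold below CD8 T cells was 1.36% without and 4.75% with treatment. Lag3, Pdcd1, Havcr2, Gzmf, Ccl4 and Rgs16 had fewer UMIs and were not among these 1327 genes. A minimum set on gamma delta UMIs leaves out genes that are low in these cells.

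The genes highest above CD8 T cells, where 5.28% (untreated) and 7.99% (treated) of the 1327 genes were 2-fold higher, were partly those of a few cells. Cd7, a surface protein of T and natural killer cells, was at 306 CPM untreated and 363 CPM treated against 101 and 38.3 in CD8 T cells (3.04-fold and 9.47-fold higher). Fcer1g was 3.82-fold and 11.2-fold higher, and its partner Tyrobp 4.01-fold and 6.04-fold higher. T cells without Trdc, Cd8b1 and Cd4 had similar levels of Cd7 (381 and 374 CPM) and Fcer1g (295 and 349 CPM), so the distance of these genes from CD8 T cells was shared with that class. Tyrobp stood above CD8 T cells there too (144 and 149 CPM, against 57.6 and 21.6). Socs3, an inhibitor of cytokine signalling, was 2.69-fold and 4.36-fold higher and was seen in 34 and 29 cells.

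Several of the other leading genes rested on 1 cell. The cell of 48849 UMIs held 36 of the 50 untreated UMIs of Tmem176a, 46 of the 56 of Tmem176b (both encode ion channel proteins found in type 17 and dendritic cells) and 83 of the 92 of Ly6c1. Without the largest cells Tmem176b stood at 35.6 and 177 CPM, against 9.30 and 16.0 in CD8 T cells. T cells without Trdc, Cd8b1 and Cd4 had it at 75.8 and 52.2 CPM, and CD4 helper T cells at 36.7 and 62.5, also above CD8 T cells. For Cxcl10, a chemokine induced by interferon, 69 of the 81 treated UMIs lay in 1 cell. Pmepa1, a target of TGF-beta, was spread over 16 and 32 cells and stood at 149 and 561 CPM, against 48.5 and 119.9 in CD8 T cells. T cells without Trdc, Cd8b1 and Cd4 (119 and 313 CPM) and CD4 helper T cells (68.0 and 242 CPM) also stood above CD8 T cells.

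Genes of resting and recirculating lymphocytes separated gamma delta from CD8 T cells in the treated library more than in the untreated one. Il7r was 1.48-fold above CD8 T cells in the untreated library (252 against 170.4 CPM, interval 1.18 to 1.84) and 9.32-fold above in the treated library (521 against 55.9 CPM, interval 7.48 to 11.5). Tcf7 was 1.33-fold and 7.53-fold above, Lef1 1.22-fold and 5.35-fold, and S1pr1, the exit receptor, 1.27-fold and 7.18-fold. Itgb7, an integrin chain of mucosal T cells, was 1.32-fold and 5.55-fold above. Of 16 tissue and recirculation genes with at least 10 UMIs, 0 untreated and 7 treated values were 2-fold above CD8 T cells, where 8.18% and 9.75% of all 5413 genes were. Values 2-fold below CD8 T cells were found for 3.25% of all genes without treatment and 9.48% with it, and for 1 gene of this list each time. The difference between the libraries was not tested. The distance from CD8 T cells was shared with other T cell classes of the treated library. There, T cells without Trdc, Cd8b1 and Cd4 had Il7r at 163 CPM, Tcf7 at 223, Lef1 at 123, S1pr1 at 106 and Itgb7 at 189.7, and CD4 helper T cells had them at 298, 233, 133, 173 and 360.1 CPM, against 55.9, 37.6, 40.2, 22.9 and 61.3 in CD8 T cells.

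**Figure D3:**
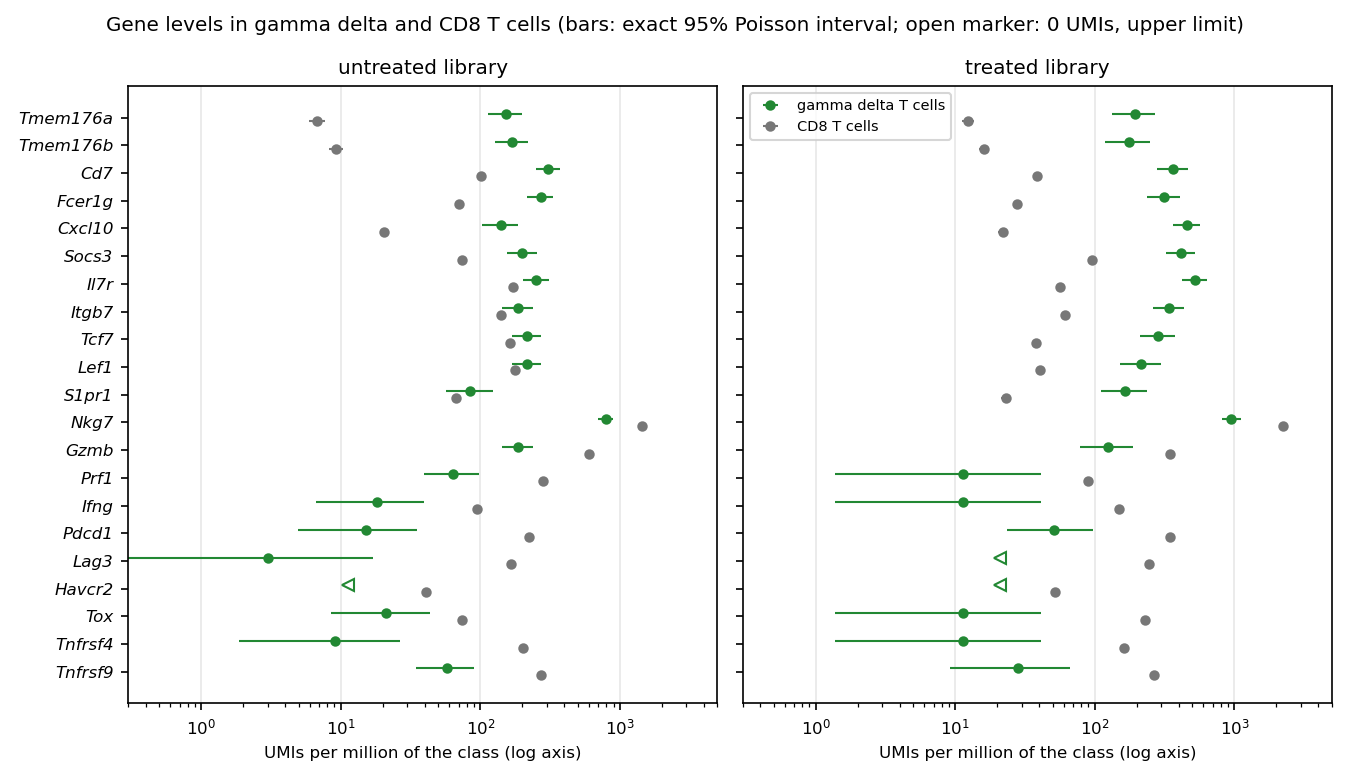
Level of 21 genes (rows) in UMIs per 1000000 of the class (log axis) in gamma delta T cells (green) and CD8 T cells (grey) of the untreated (left) and treated (right) library, with exact 95% Poisson intervals and an open marker at the upper limit where there were 0 UMIs. Il7r, Tcf7, Lef1 and S1pr1 lie close together in the untreated library and far apart in the treated one, while Pdcd1, Lag3, Havcr2 and Tox lie below CD8 T cells in both.

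Between the libraries, 218 of 1327 genes (16.4%) were at least 2-fold higher and 132 (9.95%) at least 2-fold lower in treated gamma delta T cells. For the same genes in CD8 T cells the shares were 13.5% and 3.92%. The median log2 ratio of the 1327 genes was 0.04 in gamma delta and 0.10 in CD8 T cells. Without the largest cell of each library, 85 genes were 2-fold lower.

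Of the 10 genes highest in treated cells, all were also higher in treated than in untreated CD8 T cells. Crem, a repressor of cyclic AMP signalling, was at 75.9 CPM untreated (11 of 55 cells) and 969 CPM treated (35 of 43 cells), 12.8-fold higher (interval 8.37 to 20.3), beside 104 and 953 CPM in CD8 T cells. Fosl2, a subunit of the AP-1 factor, went from 97.1 to 873 CPM (8.99-fold, interval 6.11 to 13.6), Nr4a3, an orphan receptor induced through the antigen receptor, from 72.8 to 618 CPM (8.48-fold, interval 5.41 to 13.8), and Irs2, an adaptor of insulin and interleukin-4 receptors, from 24.3 to 323 CPM (13.3-fold, interval 6.32 to 32.3). The histone demethylases Kdm6b (97.1 to 748 CPM) and Kdm2b (54.6 to 504 CPM), the signalling regulators Rgs2 (100.1 to 771 CPM) and Gadd45b (45.5 to 476 CPM), and Fbxo33 (27.3 to 255 CPM) were 7.70-fold to 10.5-fold higher. The CD8 values of these 5 genes were also higher in the treated library, with Gadd45b at 63.8 and 145 CPM.

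Ramp3, a subunit of receptors for adrenomedullin and calcitonin peptides, headed the order, with a smaller difference in CD8 T cells. It had 1 UMI in untreated and 57 in 11 treated gamma delta T cells (3.03 and 323 CPM, ratio 106, interval 18.4 to 4278), with 15 of them in 1 cell. In CD8 T cells it was at 19.6 and 30.5 CPM, and in CD4 helper T cells at 272 and 448 CPM.

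Cytokine receptor genes were higher in treated gamma delta T cells more often than the background. Of 14 with at least 10 UMIs, 8 were 2-fold higher and 0 lower, with a median log2 ratio of 1.19, against 20.6% and 16% of all genes, and 5 of the same 14 were 2-fold higher in CD8 T cells, as were 15.1% of the 5413 genes there. Both chains of the interleukin-18 receptor led, Il18r1 (42.5 to 255 CPM, 6-fold, interval 3.24 to 11.8) and Il18rap (12.1 to 85.0 CPM, 7-fold, interval 2.23 to 29.0). Il21r (78.9 to 431 CPM), Il2rb, the shared chain for interleukins 2 and 15 (331 to 827 CPM), and Tgfbr2 (63.7 to 164 CPM) were also higher. Il7r was 2.07-fold higher (252 to 521 CPM, interval 1.52 to 2.82), with 38 of its 92 treated UMIs in the 6 type 17 cells, and without the largest cells 1.66-fold higher. In CD8 T cells Il7r was lower in the treated library, at 170.4 and 55.9 CPM. The common chain Il2rg (252 to 221 CPM) and Il6st (36.4 to 34.0 CPM) stood lowest.

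Among factors of T cell fate, Rora was at 88.0 and 527 CPM (5.99-fold higher, interval 3.91 to 9.43), beside 109 and 411 CPM in CD8 T cells. Zbtb16, the factor PLZF of innate-like T cells, had 1 UMI in untreated and 10 UMIs in 9 treated cells (ratio 18.7, interval 2.66 to 811), and was near 0 in CD8 T cells (0.307 and 0.536 CPM). Of 14 fate factors, 5 were 2-fold higher and 2 lower, with a median of 0.65, against 20.6% higher and 16% lower and a median of 0.12 over all genes. The lower ones were Eomes and Id3, and 66 of the 92 untreated Id3 UMIs lay in 1 cell.

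Klf2 had the lowest ratio of the recirculation genes, from 974 to 204 CPM (4.77-fold lower, interval 3.38 to 6.94), and stood lower in CD8 T cells as well, from 674 to 62.8 CPM. Ccr7, the lymph node chemokine receptor, was 2.47-fold lower (182 to 73.7 CPM, interval 1.34 to 4.91). Itga1, a collagen-binding integrin of tissue-resident cells, had 1 and 9 UMIs (ratio 16.8, interval 2.33 to 737), and Aqp3, a glycerol channel, 3 and 7 UMIs. Of the 16 genes of this list, 4 were 2-fold higher and 2 lower in gamma delta T cells, near the 20.6% and 16% of all genes, and 5 and 7 in CD8 T cells, where 15.1% and 4.36% of all genes were. S1pr1 was at 85.0 and 164 CPM in gamma delta and at 67.0 and 22.9 CPM in CD8 T cells. Itgb7 was at 185 and 340.0 CPM in gamma delta and at 140.3 and 61.3 CPM in CD8 T cells.

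Interferon-induced genes were lower in treated gamma delta T cells. Of 11 type I interferon genes with at least 10 UMIs, 8 were 2-fold lower and 0 higher, with a median log2 ratio of -1.88. Among all 5413 genes with at least 10 UMIs, 16% were 2-fold lower and 20.6% higher in gamma delta T cells, with a median of 0.12. In CD8 T cells 6 of the 11 were 2-fold lower, where 4.36% of the 5413 genes were. Ifit1, an RNA-binding antiviral protein, went from 130.5 to 5.67 CPM (14 untreated cells and 1 treated cell, 23.0-fold lower, interval 3.92 to 930.2) and Ifit3 from 134 to 5.67 CPM. Ifit3b had 10 and 0 UMIs, at least 1.78-fold lower. Isg15, a ubiquitin-like protein, went from 339.8 to 79.3 CPM (4.28-fold lower, interval 2.45 to 8.09), with 44 of its 112 untreated UMIs in 1 cell, and was at 105 and 96.4 CPM in CD8 T cells. In the untreated library Ifit1 was 4.62-fold and Isg15 3.23-fold above CD8 T cells, and 9 of the 11 genes were 2-fold above, as were 8.18% of the 5413 genes. Untreated T cells without Trdc, Cd8b1 and Cd4 (Ifit1 74.6 CPM, Isg15 223 CPM) and CD4 helper T cells (60.0 and 185 CPM) also stood above CD8 T cells (28.3 and 105 CPM).

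The 10 genes with the lowest ratios were Cyr61, Col3a1, Spp1, Ifitm2, Pla2g7, Igfbp4, Id1, Ifitm3, Sparc and Vim, mostly genes of matrix, stromal and myeloid cells. The cell of 48849 UMIs held all 110 untreated UMIs of Cyr61, all 96 of Col3a1, 79 of 82 of Spp1, 104 of 123 of Ifitm3 and 197 of 306 of Vim. Without it Vim, an intermediate filament of activated and mobile cells, was at 388 and 142 CPM (2.74-fold lower), and Cyr61 and Col3a1 were at 0 in both libraries.

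The lowest genes without the largest cells were named after the values were seen. They were Ifi27l2a (855 to 148 CPM, 5.78-fold lower, interval 3.82 to 9.11), Klf2, Serpina3g, Zbp1, Isg15, Limd2, Psmb8, Psmb10, Psmb9 and Ms4a4c. Psmb8, Psmb9 and Psmb10 encode the catalytic subunits of the immunoproteasome, which cuts peptides for antigen presentation, and stood 3.52-fold, 4.82-fold and 4.82-fold lower. Zbp1, a sensor of nucleic acids induced by interferon, was 7.35-fold lower (217 to 29.6 CPM, interval 2.98 to 23.4). Without those cells Egr1, an early growth response factor, was 9.63-fold higher (35.6 to 343 CPM), whereas with them it was 1.08-fold lower (355 to 329 CPM), since 107 of its 117 untreated UMIs lay in 1 cell. Lmo4, a LIM-domain protein, was 10.6-fold higher.

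**Figure D4:**
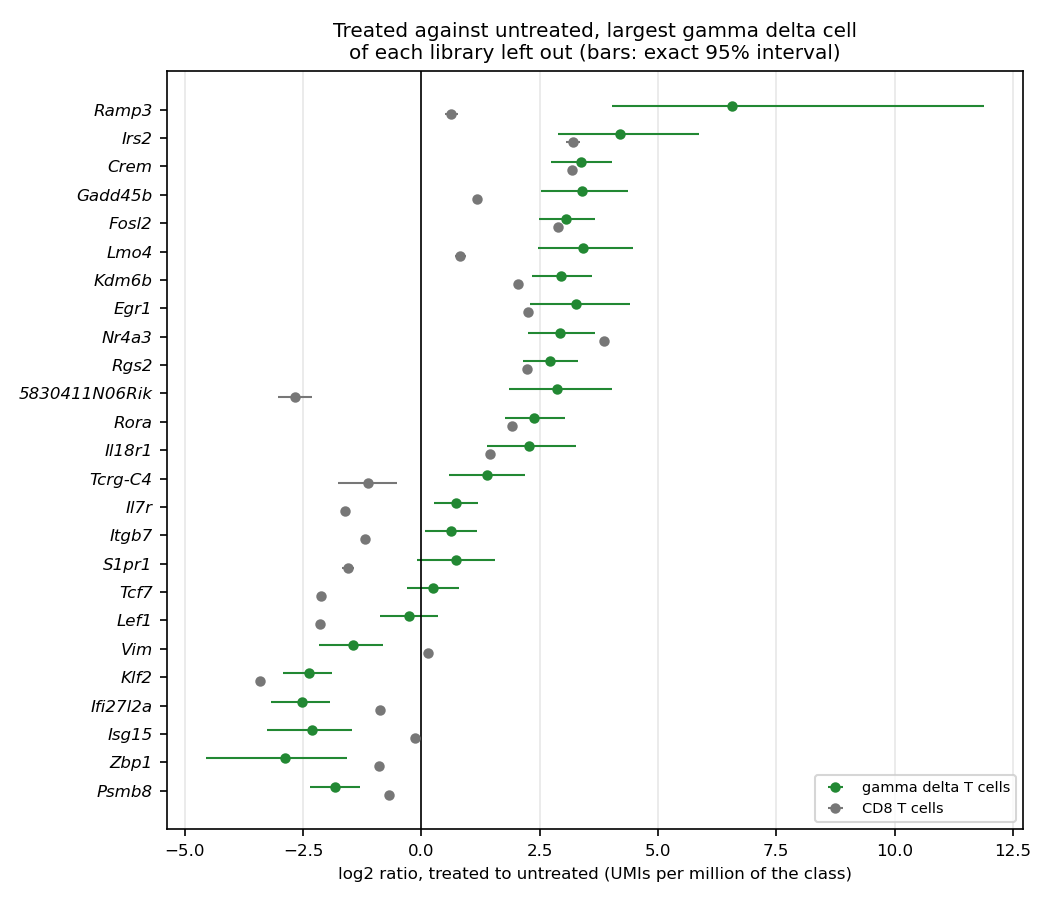
log2 ratio of treated to untreated (x axis, from UMIs per 1000000 of the class) for 25 genes (rows) in gamma delta T cells without the largest cell of each library (green) and in CD8 T cells (grey), with exact 95% intervals. Crem, Fosl2 and Irs2 lie to the right in both classes, Il7r, Itgb7, Tcrg-C4 and 5830411N06Rik lie to the right in gamma delta and to the left in CD8 T cells, and Klf2 lies to the left in both.

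Counts of the other lists are read against 20.6% of all genes 2-fold higher and 16% lower, with a median of 0.12, and against 15.1% and 4.36% in CD8 T cells. Of 13 genes induced through the antigen receptor, 5 were 2-fold higher and 1 lower, with a median of 0.70, beside 7 and 1 in CD8 T cells. Their lowest members were Jun (609.9 to 204 CPM, with 98 of 201 untreated UMIs in 1 cell) and Fos (352 to 193 CPM). Of 9 output genes of ERK, the kinase below MEK, 3 were higher and 2 lower, with a median of 0.34. Phlda1 (33.4 to 215 CPM, 6.45-fold, interval 3.23 to 14) and Spry2, a feedback inhibitor of the pathway (24.3 to 142 CPM, 5.84-fold, interval 2.55 to 15.0), stood highest, and Myc (10 and 0 UMIs) and Fosl1 (16 UMIs in 1 untreated cell and 0) lowest. Dusp6, a phosphatase that ERK induces, had 1 and 2 UMIs and could not be compared. Of 9 natural killer receptors, 2 were higher and 1 lower (median 0.28): Klrc2 (57.7 to 272 CPM), Klrc1 (81.9 to 176 CPM) and Klra1 (66.8 to 11.3 CPM).

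Of 5 checkpoint genes, 2 were higher and 1 lower (median 0.14). Pdcd1 had 5 and 9 UMIs, and Vsir, which encodes VISTA, went from 42.5 to 96.3 CPM. Of 4 secreted effectors, 1 was higher (median 0.35), Tgfb1 (118 to 289 CPM), while Ltb, a lymphotoxin chain, stood at 609.9 and 379.7 CPM. Of 9 cell cycle genes, 3 were higher and 4 lower (median -0.27), a larger share on each side than over all genes. Pcna, the replication clamp, was at 42.5 and 232 CPM, while all 14 untreated Rrm2 UMIs and 52 of 60 of Stmn1 lay in 1 cell. Of 9 stress genes, 1 was higher and 1 lower (median 0.11), Dnaja1 (561 to 1229.8 CPM) and Hspa1b (215 to 68.0 CPM).

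Markers of other cell types were low in both groups apart from those of natural killer and alpha beta T cells. Those of innate-like T cells and type 2 lymphocytes were few but stood above CD8 T cells in both libraries. Zbtb16, the 1 of 3 innate-like T cell markers in the table, was at 3.03 and 56.7 CPM, against 0.307 and 0.536. The 5 type 2 markers summed to 42.5 and 96.3 CPM, with 4 and 3 of them at 0, against 36.8 and 63.0. The 6 macrophage markers summed to 97.1 CPM untreated and 39.7 CPM treated, with 0 and 3 of them at 0, against 133 and 117 in CD8 T cells. The 7 dendritic cell markers summed to 409.6 and 255 CPM, with Flt3 and Xcr1 at 0 in both libraries, against 2133 and 708 in CD8 T cells. Neutrophil markers had 0 and 1 UMI, red cell markers 0 and 0, and B cell markers 5 and 2. Stromal or tumour markers had 159 UMIs untreated, 158 of them in the cell of 48849 UMIs, and 1 UMI treated. The 8 natural killer markers summed to 701 and 578 CPM, against 283 and 236 in CD8 T cells, with Ncr1 seen in 3 untreated cells and 1 treated cell. The 6 alpha beta T cell genes summed to 2221 and 1746 CPM, against 4129.9 and 3823. Their part in the differences between the libraries was not tested, and the values without cells holding Trac are given among the alternatives.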

How the data were processed

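The authors deposited a single matrix (15121 genes by 17390 cells) of natural log values, made from a droplet 3′ kit per the labels' protocols. Cell Ranger and Seurat, without versions, and a human build (GRCh38) are listed per the submitters' processing notes. Since the symbols are those of mouse, no coordinates were used. Undoing the log gave a sum of 10000 in each cell, and dividing by the cell's smallest value gave whole UMIs (within 0.01) for 38204229 of 38204229 nonzero values. The design had assumed counts, so these recovered UMIs were used in their place and summed per class and library. Cells were given to libraries by the suffix of their names, tied to the labels by sample number and cell number. CD8 T cells had Cd3e and Cd8b1 and lacked Trdc, Cd4, Foxp3 and C1qa. 

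Intervals were Clopper-Pearson for shares, Poisson for levels and conditional binomial for ratios (SciPy 1.17.1), and treat UMIs as independent although cells differ. The ratio intervals were tried only on simulated Poisson counts, the model they assume. That trial could not show how they behave where single cells hold many UMIs. Ratios used genes with at least 50 UMIs over both libraries, or 10 for list members, and a gene at 0 was counted at its bound from a floor of 3 UMIs. The ranking against CD8 T cells also took genes with fewer gamma delta UMIs whose CD8 level predicted enough UMIs in each library. Named genes are list members, the 10 highest and 10 lowest between libraries and the 12 highest and 8 lowest against CD8 T cells, ranked by the interval bound nearest 1. Members, lists and rules were chosen with earlier results of these data known. Doublets were kept, since the automatic Scrublet threshold marked 4 and 0 cells and was taken as not working. Some genes are not reported here.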

Additional observations from a re-analysis of the deposited data

Results flagged for a closer look

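For 6 of the named genes the counting intervals of the treated to untreated ratio lay on opposite sides of 1 in gamma delta and CD8 T cells, with and without the largest cell of each library, and none of these differences was tested. The log2 ratio of treated to untreated was 1.54 for Tcrg-C4 (CD8 T cells -1.12), 3.04 for 5830411N06Rik (-2.66), 1.05 for Il7r (-1.61) and 0.88 for Itgb7 (-1.19). It was 1.71 for Gzma (-1.09), whose 21 treated UMIs lay in 1 cell. It was -2.66 for Vim (0.15), where 197 of 306 untreated UMIs lay in 1 cell. For another 6 genes this held with all cells and, without the largest ones, the intervals no longer lay on opposite sides of 1 or there was no value, namely Tcrg-C1, Col3a1, Sparc, S1pr1, Cyr61 and Id1.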

How the results depend on the processing

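No paired analysis was possible because each group had 1 library. Over 739 gene ratios under the alternatives, 669 kept their value within counting error, 67 moved and 3 changed sign, and of 144 shares, counts and medians 109 were within the reported interval or within 1.5 times and 35 were not. The cause of these changes was not tested. With at least 2 Trdc UMIs the shares were 0.419% and 0.347%, 126 genes were higher, the type 17 median was 0.16 and Maf was at -0.20. Without Trac the shares were 0.258% and 0.384%, 118 genes were higher and 65 lower, the cytotoxic median was 1.55 and Eomes was at 0.71. Without cycling cells 63 genes were lower. The next 3 settings were chosen after seeing the data. Without Cd8a the untreated share was 0.344%, its type 17 share 0 and its Tcrg-C4 share 18.8%, 137 genes were higher and 35 lower, the type 17 median was 3.11 and Eomes was at 0.94. With Tcrg-C1 or Tcrg-C4 required the shares were 0.268% and 0.322%, 121 genes were higher and the type 17 median was 1.68. Without the largest cells 85 genes were lower. Of cells with Cd3e and no C1qa the untreated share was 0.819%. With cells thinned to 2000 UMIs the treated share was 0.37%, and Tcrg-C1, Tcrg-C2 and Tcrg-C4 were seen in 10.3%, 15.6% and 14.4% of untreated cells and Tcrg-C2 in 24.3% of treated cells. With 3 list genes needed, 1.82% of untreated cells were type 17. At least 20 UMIs gave 651 genes higher and 411 lower, at least 200 UMIs 21 and 12, and a 1.5-fold threshold 385 and 256. With at least 50 UMIs per list member the type 17 median was 3.04, from 1 gene. Depth limits single genes: from a floor of 3 cells, 0 of 55 or 43 cells with a UMI allow a share of cells with a UMI of up to 5.45% or 6.98%.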
